A study of Equus caballus with 45 samples.

Results

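The chemokines that bind the receptor CXCR3 are CXCL9, CXCL10 and CXCL11, and their transcripts were followed in equine bone marrow mesenchymal stromal cells (MSC) and in equine synoviocytes, chondrocytes and macrophages. The members were found by gene symbol in the count tables, which hold 20881 genes each. CXCL10 and CXCL11 have a row of that name, so 2 of the 3 members could be described, and CXCL9 was not analysed here. All 3 are small secreted proteins that interferons induce, and they draw activated T cells and natural killer (NK) cells, which carry CXCR3, towards the cells that release them. CXCL11 is also bound by ACKR3, a receptor that removes chemokine from the surroundings, and the surface protease DPP4 trims the amino-terminal end of these chemokines. In inflamed joints they are known as products of synovial macrophages and fibroblasts.

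The data are RNA sequencing read counts of 45 libraries. MSC of the horses PC, 99 and 92 each gave 1 library untreated, 1 after the TLR3 agonist poly I:C, 1 after the STING agonist 2′3′-cGAMP and 1 under the label CpG. TLR3 senses double-stranded RNA and STING is switched on by cyclic dinucleotides, and both pathways lead to interferon production. Synoviocytes, chondrocytes and macrophages gave 11 libraries each. In each of these cell types 9 libraries came from cells that received IL-1β, TNF-α and conditioned medium of MSC of the horses PC, ORC and AG1. The medium was taken from untreated MSC (resting MSC-CM), TLR3-activated MSC (TLR-MSC-CM) or STING-activated MSC (STING-MSC-CM). A further library came from cells given the cytokines only and another from cells with no addition. Per the study's methods, the agonists were washed off the MSC, which were then cultured for 24 h before RNA was taken. Joint cells had the medium for 24 h, were washed and were cultured for another 24 h before RNA was taken. The study's abstract also places a wash between cytokines and medium, which its methods do not mention. Whether cytokines and medium were present at the same time is thus uncertain. Per the study's methods the cells of each joint cell type came from 1 horse. Replicates there were thus read as differing by the MSC donor behind the medium and not by the responding animal. The study's captions, however, call these libraries biological replicates of the joint cells. The labels also put a horse code on libraries without MSC medium, and hold more codes than the methods name MSC donors. What the code stands for in joint cells is therefore uncertain. Resting MSC-CM was the shared control of both activated media. By the labels, agonist doses were 10 ng/mL, and cytokine doses were 10 ng/mL for macrophages and 20 ng/mL for synoviocytes and chondrocytes. The study's methods name higher agonist doses and give macrophages the same cytokine dose as synoviocytes, so the doses of the agonists and of the macrophage cytokines are uncertain. Macrophages had been grown from blood mononuclear cells with M-CSF. CpG is named in the labels but not in the study's methods.

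The libraries held 23525704 to 54103873 counted reads, and a count of 3, taken as the floor, equals 0.0554 to 0.128 CPM, the unit used here for a count scaled by the total of its library. Intervals and floors cover counting error only. All 12 macrophage markers were over the floor in every macrophage library, with a summed level of 8489 to 11751 CPM. The macrophage cultures also carried 11 of 11 T and NK cell markers over the floor, with a summed level of 659 to 1035 CPM, against 0.477 to 5.62 CPM in the other cell types. COL2A1, the collagen that defines cartilage, was at 0.368 CPM or less in all 11 chondrocyte libraries. The other listed chondrocyte markers are not given, so the identity of these cells cannot be judged from this 1 gene. PRG4, the lubricin gene of synovial lining cells, was not analysed here. Of the synovial fibroblast markers, FAP averaged 814 CPM in synoviocytes and 769 CPM in chondrocytes with resting MSC-CM. PDPN averaged 101 and 88.2 CPM there, and CD55, HAS1 and CLIC5 averaged under 1 CPM in both. FAP and PDPN thus had like levels in both cultures. In bulk samples such as these, fewer cells of a kind and less RNA per cell cannot be told apart.

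Among the joint cells CXCL10 and CXCL11 were found mainly in the macrophage cultures, and which cells of these cultures carried them was not tested. In MSC they were found at more than trace level only after an agonist. CXCL10 ran from 141 to 542 CPM in the 11 macrophage libraries. It ran from 0.0284 to 154 CPM in MSC, reached 12.1 CPM in a single synoviocyte library and stayed at or below 0.134 CPM in chondrocytes. CXCL11 ran from 160 to 684 CPM in macrophages and from 0 to 6.61 CPM in MSC. It was at 0 in 10 of 11 synoviocyte libraries and in all 11 chondrocyte libraries. By rank within a library, CXCL10 stood above 93.5% to 98.9% of the genes in macrophages and CXCL11 above 94.4% to 99.1%. In untreated MSC CXCL10 stood above 37.7% to 43.5% of the genes.

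**Figure D1:**
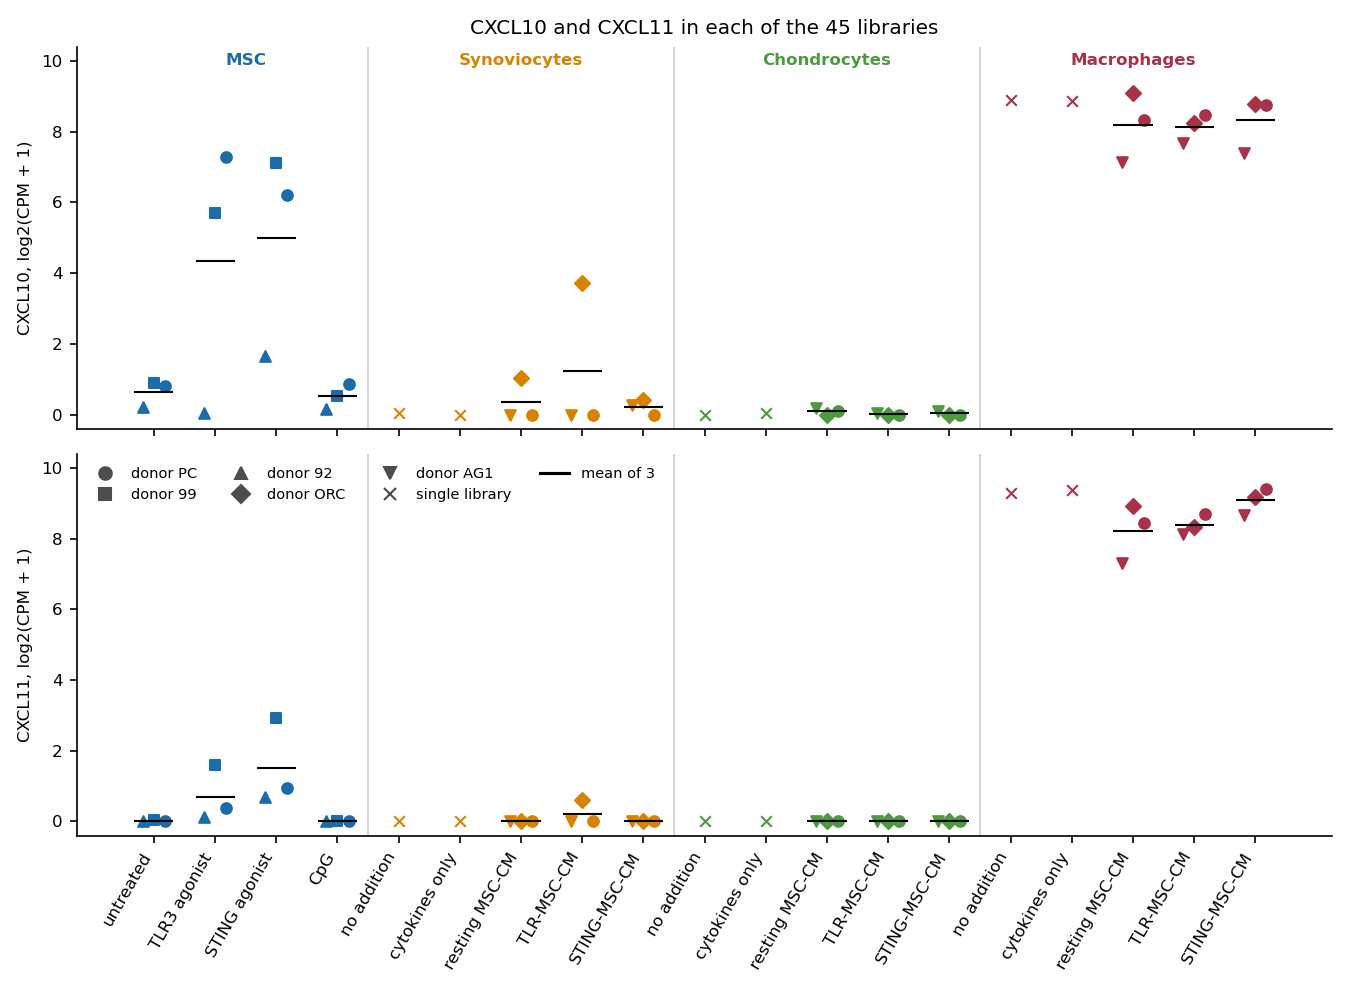
CXCL10 (upper panel) and CXCL11 (lower panel) in all 45 libraries, as log2(CPM + 1) on the vertical axis, by cell type and condition on the horizontal axis. Symbols mark the MSC donor or a single library, and black lines are means of 3 libraries. The 11 macrophage libraries stand above all synoviocyte and chondrocyte libraries for both genes, while the agonist-treated MSC of donor 92 sit far below those of donors 99 and PC for CXCL10.

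The question put to MSC was what each agonist does to their transcripts. For donors 92, 99 and PC in that order, CXCL10 had 8, 31 and 23 counts in untreated cells, which is 0.166, 0.857 and 0.752 CPM. After the TLR3 agonist it had 1, 2431 and 7703 counts, or 0.0284, 51.1 and 154 CPM. After the STING agonist it had 61, 5428 and 2471 counts, or 2.14, 139 and 72.7 CPM. The TLR3 agonist libraries thus overlapped with untreated cells through donor 92, and the STING agonist libraries lay above all untreated libraries. The group means were 0.592 CPM ± 0.373 (SD, n = 3) untreated, 68.3 ± 78.3 after poly I:C and 71.3 ± 68.5 after the STING agonist.

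Within donors, the ratio of CXCL10 after the TLR3 agonist to untreated cells was 204 in PC (95% counting interval 136 to 323), 59.6 in 99 (41.9 to 87.9) and 0.172 in 92 (0.00387 to 1.28), the last resting on 1 count. The corresponding ratio for the STING agonist was 96.7 in PC (64.3 to 153), 162 in 99 (114 to 239) and 12.9 in 92 (6.15 to 31.2). The donors did not rank the agonists alike. CXCL10 after the STING agonist was 2.72 times that after the TLR3 agonist in donor 99 (2.60 to 2.86), 75.1 times in 92 (12.99 to 3015, on 61 counts against 1) and 0.473 times in PC (0.452 to 0.495). These intervals cover the counts of 1 library against 1, and CXCL10 was higher after the STING agonist in 2 of 3 donors.

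CXCL11 was far less abundant in reads and was nearly undetected without an agonist. It had 0, 1 and 0 counts in untreated cells of donors 92, 99 and PC, 3, 96 and 15 after poly I:C and 18, 258 and 31 after the STING agonist. All 3 libraries of either agonist lay above all untreated libraries, although the 3 counts of donor 92 after the TLR3 agonist are at the floor. In CPM these were 0.0853, 2.02 and 0.299 after poly I:C and 0.630, 6.61 and 0.912 after the STING agonist. Summed over the 3 donors, 114 counts against 1 gave a ratio of 98.7 (17.4 to 3933) for the TLR3 agonist, and 307 against 1 gave 348 (62.0 to 13784) for the STING agonist. CXCL11 was higher after the STING agonist than after the TLR3 agonist in all 3 donors, with ratios of 7.39 in 92 (2.16 to 39.2), 3.28 in 99 (2.58 to 4.19) and 3.05 in PC (1.60 to 6.07).

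**Figure D2:**
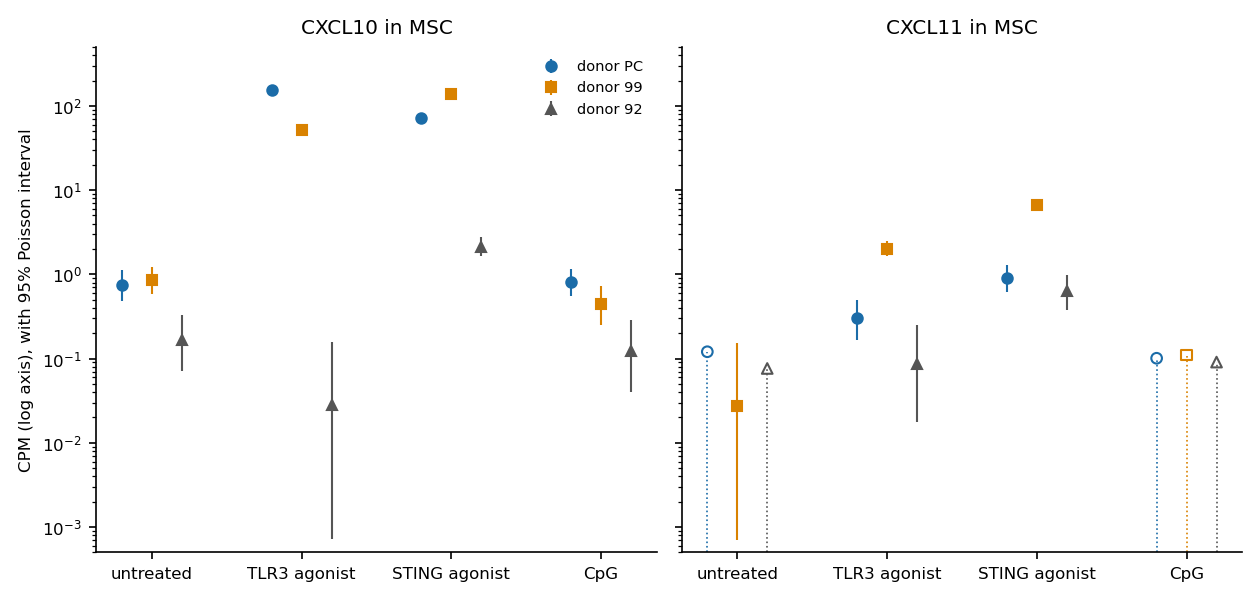
CXCL10 (left) and CXCL11 (right) in MSC of 3 donors, as CPM on a logarithmic vertical axis with the 95% Poisson interval of the count, by treatment on the horizontal axis. Open symbols with dotted lines mark the upper bound of libraries with 0 counts. Donors 99 and PC show 51.1 to 154 CPM of CXCL10 after either agonist, while donor 92 shows 0.0284 CPM after poly I:C and 2.14 CPM after the STING agonist.

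Over all genes, the quasi-likelihood test of edgeR called 0% of the 14872 genes tested, after Benjamini-Hochberg adjustment, in either agonist comparison, so neither member passed there. At an unadjusted p under 0.05 there were 168 genes for the TLR3 agonist and 306 for the STING agonist, and DESeq2 called 48 and 93 genes after adjustment. The fitted log2 fold change of CXCL10 was 6.93 (SE 2.30, unadjusted p = 0.0157, adjusted p = 1.00) for the TLR3 agonist and 6.95 (SE 2.30, unadjusted p = 0.0155, adjusted p = 1.00) for the STING agonist. For CXCL11 edgeR gave 6.18 (SE 1.84, unadjusted p = 0.00924, adjusted p = 1.00) and 7.83 (SE 1.91, unadjusted p = 0.00302, adjusted p = 1.00). By the study's own thresholds, which ask for an unadjusted p no higher than 0.05 with a log2 fold change of 2 or more in size, both members were higher after both agonists. Without the untreated library of donor 92, CXCL10 missed them, at an unadjusted p of 0.0516 for the TLR3 agonist and 0.0512 for the STING agonist in edgeR. The size of the CXCL11 change moved with donor 99. For the TLR3 agonist it was 4.02 on the log2 scale without the treated library of 99 and 8.09 without its untreated library, and for the STING agonist it was 5.94 and 9.74. The CXCL10 change ran from 5.60 (without the treated library of PC) to 7.50 (without that of 92) for the TLR3 agonist and from 5.96 (without that of 99) to 7.50 (without that of 92) for the STING agonist. The study's thresholds, applied to the edgeR fit, found 0.719% of all genes higher after poly I:C and 0.908% after the STING agonist. The study itself used DESeq2, so these shares are not its own counts.

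The call of the members depended on the model. With the donor as a block, the edgeR value of CXCL11 for the STING agonist was 7.82 with an adjusted p of 0.00952, and CXCL11 was among 2 genes called. The paired edgeR fit gave CXCL10 an adjusted p of 0.296 for the STING agonist, and CXCL11 0.174 for the TLR3 agonist. DESeq2 called both members for the STING agonist (adjusted p = 0.0353 for CXCL10 and 0.00132 for CXCL11) and neither for the TLR3 agonist (0.0610 and 0.0647). Without the TLR3 agonist library of donor 92, edgeR called 48 genes, and CXCL10 stood at 7.50 with an adjusted p of 0.271. The two-sided exact permutation test over libraries gave p = 0.4 for CXCL10 with poly I:C, where 2 of 3 donors were higher, and p = 0.1 for the other 3 cases, where 3 of 3 donors were higher, the lowest value open to 3 against 3 libraries. After adjustment over the 25 exact tests of members the values at 0.1 became 0.357. Of all genes tested, 4.03% had every STING agonist library above every untreated library, as both members did, and 0.867% did so for the TLR3 agonist, as CXCL11 did.

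No difference between the agonists passed the test. The log2 difference of the STING agonist from the TLR3 agonist was 0.017 for CXCL10 (SE 1.73) and 1.65 for CXCL11 (SE 1.31), each with an adjusted p of 1.00 by edgeR. With the donor as a block CXCL11 was at 1.80 (SE 0.347, unadjusted p = 0.000593, adjusted p = 1.00 by edgeR). The CpG libraries held 5, 15 and 30 counts of CXCL10 in donors 92, 99 and PC and 0 counts of CXCL11 in all 3. These CXCL10 counts overlapped with those of untreated cells, at 0.463 CPM ± 0.349 (SD, n = 3), and the edgeR log2 difference was −0.33 (SE 1.90, adjusted p = 1.00).

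Genes that type I interferon induces were read beside the members. After either agonist, 13 of 13 such genes in the table were higher by the study's thresholds, with a median log2 fold change of 5.14 for the TLR3 agonist and 5.73 for the STING agonist, against medians of 0.02 and 0.01 over all genes. None of them passed the adjusted threshold in edgeR. The TLR3 agonist library of donor 92 stood apart here too. Its mean log2(CPM + 1) over these genes was 2.47, beside 2.78 in the untreated cells of that horse, and was 7.51 in donor 99 and 8.74 in PC. ISG15, an interferon-induced ubiquitin-like protein, was at 9.55 CPM there against 14.3 CPM untreated, while it was at 1265 CPM in 99 and 1976 CPM in PC.

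After the STING agonist the same horse was below the other donors in the mean of these genes and in CXCL10. Averaged over the type I interferon targets on that scale it stood at 7.43, against 8.53 in donor 99 and 8.49 in PC. MX1, an antiviral GTPase, was at 693 CPM in donor 92, between 546 in PC and 927 in 99. OAS3, which makes the second messenger that activates RNase L, was at 558 CPM against 778 and 785. CXCL10 in that library was at 2.14 CPM, against 139 and 72.7 CPM. CCL5, a chemokine for T cells, had 5.78 CPM there, against 71.4 in donor 99 and 46.6 in PC. Why donor 92 differs was not tested.

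Regulators of the ligand genes were read in the same libraries. IRF7, which amplifies type I interferon, went from 5.24, 17.6 and 11.7 CPM in untreated MSC of donors 92, 99 and PC to 5.43, 490 and 854 CPM after poly I:C and to 454, 2244 and 1355 CPM after the STING agonist. Its STING agonist libraries all lay above its untreated libraries, with 6.88 on the log2 scale in edgeR (SE 1.61, adjusted p = 1.00). IRF1, the factor that interferon gamma and NF-κB raise, was at 7.55, 35.7 and 30.6 CPM untreated and at 13.9, 37.0 and 41.4 CPM after the STING agonist. Donor 92 had the lowest IRF1 and the lowest CXCL10 of the 3 horses in each of the 4 conditions. Of 37 tested genes of the CXCR3 ligand pathway, 7 were higher by the study's thresholds after the TLR3 agonist, 8 after the STING agonist and 0 lower, and none passed the adjusted edgeR threshold. Among the genes higher after both were IRF9, IRF7, TLR3, DDX58, IFIH1 and USP18. CGAS was higher by those thresholds after the STING agonist, at 2.03 on the log2 scale (SE 0.599), and was at 1.75 (SE 0.594) after the TLR3 agonist. The median log2 fold change over all 37 was 0.057 for the TLR3 agonist and 0.12 for the STING agonist.

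The interferon transcripts read here, IFNG, IFNB1 and IFNE, were scarce in MSC at the time of collection. Other interferon genes were not read, and earlier times were not sampled. IFNG, the gene of interferon gamma, had 0 counts in all 12 libraries, and IFNB1 reached 0.0399 CPM in a single library. The highest IFNE level was 0.177 CPM, in a STING agonist library. TLR3 itself, the sensor of poly I:C, was at 1.35, 3.04 and 1.08 CPM untreated, at 0.966, 15.9 and 41.8 CPM after its own agonist and at 20.4, 32.05 and 28.3 CPM after the STING agonist. In donor 92 the TLR3 agonist library was thus the lowest of the 3 horses. STING1 was at 22.3 CPM in untreated cells of donor 92, above 11.4 CPM in 99 and 10.6 CPM in PC.

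Genes that interferon gamma typically induces were less uniform. Of 8 tested, 1 was higher by the study's thresholds after poly I:C and 3 after the STING agonist, with medians of 1.24 and 1.61 on the log2 scale. GBP5, a GTPase that promotes inflammasome assembly, passed those thresholds for both, at log2 fold changes of 3.93 and 4.25. CD74, the invariant chain of MHC class II, was at 0.393 CPM or less in untreated cells, at 0.339 CPM or less after the TLR3 agonist, and at 21.6, 7.77 and 1.68 CPM in donors 92, 99 and PC after the STING agonist. The order of the donors for CD74 was thus not that of CXCL10. PSMB8 and PSMB9, subunits of the immunoproteasome, had log2 fold changes of 2.34 and 1.90 for the STING agonist, of which the first passed those thresholds.

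The chemokines outside the family did not move as a group. Of 9 tested, 1 was higher by the study's thresholds after the TLR3 agonist, and 1 higher and 1 lower after the STING agonist, with median log2 fold changes of −0.10 and 0.29. The higher one was CCL5, at 5.34 (SE 1.68) and 6.28 (SE 1.74). CCL20, which attracts Th17 cells through CCR6, was the lower one, at −2.37 (SE 0.948) for the STING agonist. CXCL16 was at 0.61 and 1.04, and CXCL8, the neutrophil chemokine, at −0.39 and −1.97, each with an adjusted p of 1.00 by edgeR.

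Markers of other cells were checked in the agonist-treated MSC. The summed level of the 12 macrophage markers went from 12.9 to 16.3 CPM untreated to as much as 139 CPM after poly I:C and 325 CPM after the STING agonist, with 3 to 6 markers over the floor in each MSC library. CD68, a lysosomal protein, made up almost all of it, at 13.3 CPM ± 1.42 (SD, n = 3) untreated and 191 ± 135 after the STING agonist. The defining markers CD163 and AIF1 were at 0 in all 12 MSC libraries. The 11 T and NK cell markers summed to 1.87 to 5.62 CPM.

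Over the 12 MSC libraries, CYP2C113 had the pattern most like that of CXCL10 among 11078 genes with a mean of at least 1 CPM, with a Pearson r of 0.986 on log2(CPM + 1). CCL5 (0.980), PSMF1 (0.979), CTSS (0.972) and PHYHD1 (0.969) came next, and CXCL11 had r = 0.752. The 12 libraries share 3 donors and 4 conditions. With rank correlation the 5 nearest genes were others, among them IFI35 and B2M, and shared 0 of 5 with these.

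**Figure D3:**
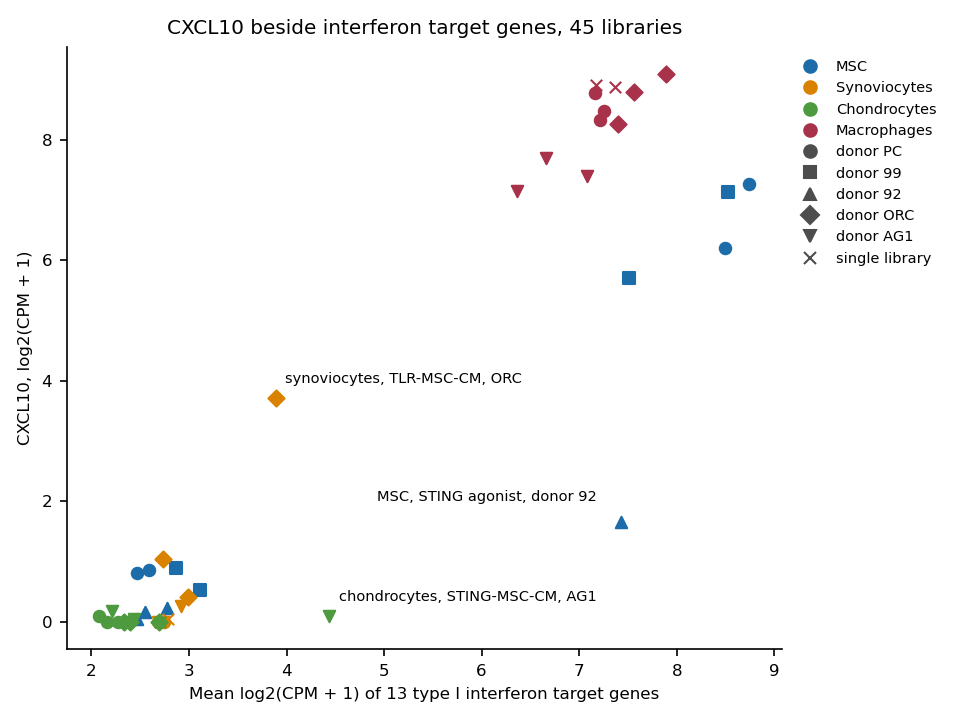
CXCL10 as log2(CPM + 1) on the vertical axis against the mean log2(CPM + 1) of 13 type I interferon target genes on the horizontal axis, for 45 libraries, coloured by cell type and marked by donor. The STING agonist library of donor 92 lies at 7.43 on the horizontal axis with 2.14 CPM of CXCL10, the synoviocyte library with TLR-MSC-CM of ORC lies at 3.89 with 12.1 CPM, and the chondrocyte library with STING-MSC-CM of AG1 at 4.43 with 0.0715 CPM.

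In synoviocytes the question was whether medium of activated MSC acts otherwise than medium of resting MSC on cells given IL-1β and TNF-α. CXCL10 had few or no counts in the libraries with medium, apart from those with resting MSC-CM and TLR-MSC-CM of donor ORC. For AG1, ORC and PC, resting MSC-CM gave 0, 29 and 0 counts, TLR-MSC-CM 0, 320 and 0 counts, and STING-MSC-CM 9, 8 and 0 counts. CXCL11 was found in the same TLR-MSC-CM library of ORC, with 14 counts (0.530 CPM), and had 0 counts in all 8 other libraries with medium. The 3 groups overlapped for CXCL10 in each comparison.

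With ORC medium, CXCL10 was at 12.1 CPM with TLR-MSC-CM, 11.4 times the level with resting MSC-CM (7.77 to 17.3), and 37.3 times the level with STING-MSC-CM (18.7 to 87.2). CXCL11 there was at least 4.81-fold higher than the floor of the resting library. Over 3 donors the edgeR log2 fold change of CXCL10 for TLR-MSC-CM was 3.52 (SE 2.30, adjusted p = 0.615), and that of CXCL11 5.35 (SE 2.96, adjusted p = 0.560). Without the TLR-MSC-CM library of ORC the CXCL10 value was −6.46, and without the resting library of ORC it was 9.95. STING-MSC-CM gave −0.92 for CXCL10 (SE 3.32, adjusted p = 0.958 in edgeR). Of 14584 genes, 0% were called by edgeR with either medium, with 1323 and 973 at an unadjusted p under 0.05, and DESeq2 called 2 and 0.

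Other interferon-responsive genes were also at their highest in the TLR-MSC-CM library of ORC among synoviocytes with TLR-MSC-CM. Averaged over the type I interferon targets, log2(CPM + 1) was 3.89 there, against 2.73 with AG1 and 2.68 with PC. ISG15 was at 21.7 CPM against 5.45 and 4.16, MX1 at 17.9 CPM against 6.09 and 5.12 and GBP5 at 21.8 CPM against 7.34 and 7.25. The summed macrophage markers were at 13.7 CPM in this library and 13.5 to 19.9 CPM over all synoviocyte libraries. Its T and NK cell markers summed to 0.833 CPM, within the range of 0.477 to 1.10 CPM.

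In chondrocytes CXCL10 gave 5, 0 and 2 counts with resting MSC-CM of AG1, ORC and PC, 1, 0 and 0 with TLR-MSC-CM and 3, 0 and 0 with STING-MSC-CM. CXCL11 gave 0 counts throughout, and with 0 in a library a level of up to the floor of 3 counts is allowed. The sum of 1 count against 7 gave a ratio of 0.116 for TLR-MSC-CM (0.00257 to 0.901), and 3 against 7 gave 0.419 for STING-MSC-CM (0.0699 to 1.84). No difference was detectable at this depth, with edgeR log2 values of −2.53 (SE 1.60, adjusted p = 1.00) and −1.22 (SE 1.41, adjusted p = 1.00). Of 14304 genes 0% were called by edgeR, with 74 and 113 at an unadjusted p under 0.05 and 0 and 0 in DESeq2.

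The chondrocytes with STING-MSC-CM of AG1 had raised levels of other interferon targets without the CXCR3 ligands. The mean over the type I interferon targets was 4.43 there, against 2.69 with ORC and 2.27 with PC. ISG15 was at 30.4 CPM against 4.87 and 3.43, MX1 at 39.1 CPM against 3.12 and 1.05, and IRF7 at 27.04 CPM against 3.01 and 4.44. CXCL10 had 3 counts in that library. In the ORC synoviocytes named above, with a lower mean over these targets of 3.89, it had 320 counts. IRF1 was at 11.7 CPM in this chondrocyte library and 12.9 CPM in that synoviocyte library. Each is a single library of its condition and donor, so these are values without a test.

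With IL-1β and TNF-α but no medium, CXCL10 and CXCL11 were not above the detection limit in either cell type at the time of collection. In synoviocytes CXCL10 had 1 count with no addition and 0 with the cytokines, and in chondrocytes 0 and 1, and CXCL11 had 0 in all 4 libraries. Other chemokines differed widely between the same libraries. CXCL8 was at 0.568 CPM with no addition and 23.1 CPM with the cytokines in synoviocytes, and at 3.16 and 3307 CPM in chondrocytes. CCL20 was at 23.6 and 93.1 CPM in synoviocytes and at 85.4 and 1004 CPM in chondrocytes. CCL5 was at 1.48 and 19.4 CPM and at 7.95 and 35.9 CPM, respectively. Between these single libraries, 0.4% of 14759 genes in synoviocytes and 1.34% of 14490 in chondrocytes differed at least 4-fold on CPM + 1, and no replicate check exists.

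The macrophage cultures carried both ligands before any addition. With no addition CXCL10 was at 481 CPM and CXCL11 at 631 CPM, and with the cytokines only they were at 471 CPM and 665 CPM. The ratio of these single libraries was 0.980 for CXCL10 (0.955 to 1.00) and 1.05 for CXCL11 (1.03 to 1.08), and 0% of 15175 genes differed 4-fold. With resting MSC-CM of AG1, ORC and PC, CXCL10 was at 141, 542 and 319 CPM, with TLR-MSC-CM at 205, 306 and 357 CPM, and with STING-MSC-CM at 169, 442 and 435 CPM. The media overlapped for CXCL10, and the library of AG1 was the lowest of each medium.

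CXCL11 was at 160, 482 and 345 CPM with resting MSC-CM, at 279, 323 and 411 CPM with TLR-MSC-CM and at 405, 578 and 684 CPM with STING-MSC-CM. Its level was highest with STING-MSC-CM in each donor, while the groups overlapped through AG1 with STING-MSC-CM. The ratio of STING-MSC-CM to resting MSC-CM was 2.54 in AG1, 1.20 in ORC and 1.98 in PC, and that to TLR-MSC-CM was 1.45, 1.79 and 1.66. In edgeR CXCL11 with STING-MSC-CM stood at a log2 difference of 0.74 (SE 0.387, adjusted p = 0.917) against resting and 0.76 (SE 0.387, adjusted p = 0.747) against TLR-MSC-CM. With the donor as a block these were 0.82 (adjusted p = 0.261) and 0.73 (adjusted p = 0.239), so CXCL11 passed in neither edgeR fit. The exact permutation test gave p = 0.2 for both (adjusted p = 0.556 against resting), with 3 of 3 donors higher.

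For CXCL10 the log2 differences from resting MSC-CM in edgeR were 0.045 for STING-MSC-CM (SE 0.534, adjusted p = 0.994) and −0.26 (SE 0.534, adjusted p = 0.998) for TLR-MSC-CM. For CXCL11 with TLR-MSC-CM the edgeR value was −0.017 (SE 0.385, adjusted p = 0.998), and 0.084 with the donor as a block. Among 15052 genes 0% were called with either medium by edgeR without the block, with 316 genes for TLR-MSC-CM and 693 for STING-MSC-CM at an unadjusted p under 0.05, and 0 and 9 in DESeq2. With the block, 99 genes were called for STING-MSC-CM against resting and 412 against TLR-MSC-CM, and neither member was among them.

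The balance of both transcripts in macrophages was compared as well, a comparison added after the data had been seen. CXCL11 made up 53.1%, 47.0% and 51.9% of the summed counts of CXCL10 and CXCL11 with resting MSC-CM of AG1, ORC and PC. It made up 57.6%, 51.4% and 53.5% with TLR-MSC-CM and 70.6%, 56.6% and 61.1% with STING-MSC-CM. The STING-MSC-CM libraries did not overlap with the resting ones, at 62.8% ± 7.14 against 50.7% ± 3.20 (SD, n = 3 each). The difference of 12.1 percentage points was seen in 3 of 3 donors (9.19 to 17.5 points). It had p = 0.1 in the two-sided exact permutation test (0.3 after adjustment over the 3 comparisons of media). That test did not pair libraries by donor, and 0.1 is its lowest value for 3 against 3 libraries. With no addition the share was 56.7% and with the cytokines only 58.5%, between the means of resting MSC-CM and STING-MSC-CM.

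**Figure D4:**
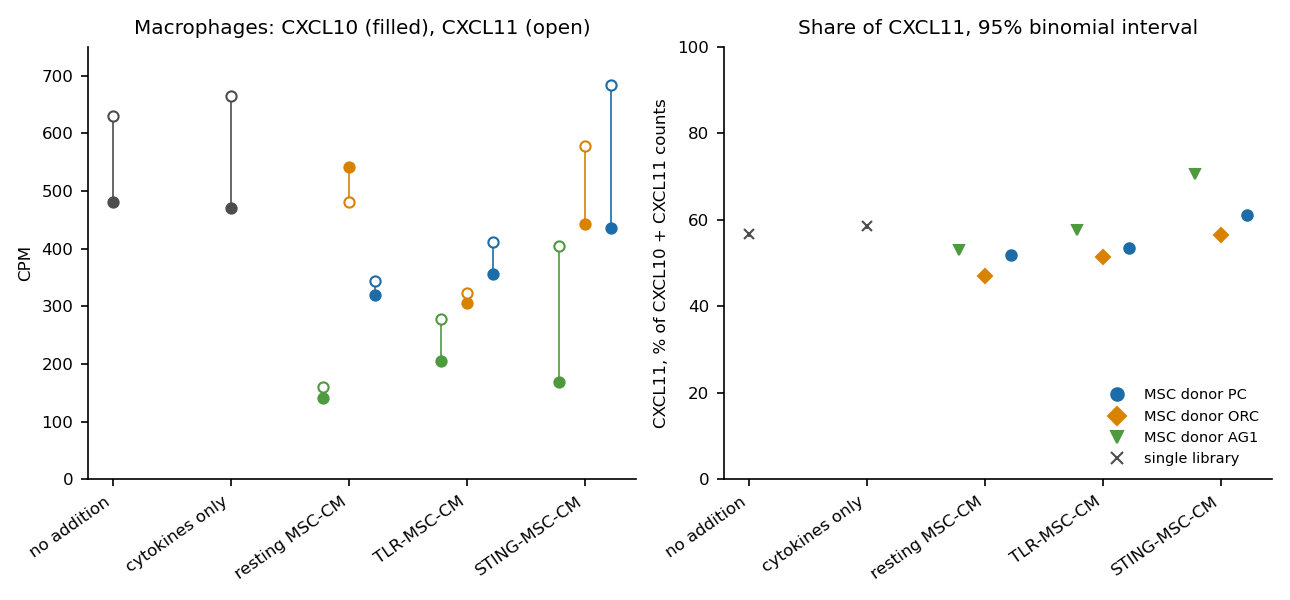
Left, CPM of CXCL10 (filled) and CXCL11 (open) in the 11 macrophage libraries by medium on the horizontal axis, each library joined by a line and coloured by MSC donor. Right, the percentage of CXCL11 in the summed counts of both genes with its 95% binomial interval, which is mostly smaller than the symbol. With resting MSC-CM the share is 47.0% to 53.1%, and with STING-MSC-CM 56.6% to 70.6%.

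In MSC and synoviocyte libraries with at least 79 counts of the pair, CXCL10 made up most of them. CXCL11 made up 3.80% (exact binomial interval 3.09 to 4.62) of the pair in MSC of donor 99 after poly I:C and 4.54% (4.01 to 5.11) after the STING agonist. In donor PC it made up 0.194% (0.109 to 0.320) and 1.24% (0.843 to 1.75). In donor 92 it was 22.8% (14.1 to 33.6) of 79 counts after the STING agonist, and in the ORC synoviocytes with TLR-MSC-CM 4.19% (2.31 to 6.93). Shares of counts depend on transcript length and do not give molar ratios. Setting them side by side between libraries assumes the same transcripts and the same assignment of reads in each, which was not tested.

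The macrophage cultures also differed between libraries in T and NK cell markers, IFNG and type I interferon targets. With resting MSC-CM, the T and NK cell markers summed to 659, 801 and 860 CPM in AG1, ORC and PC, and IFNG, a product of T and NK cells, was at 8.34, 4.12 and 5.31 CPM. The mean of the type I interferon targets was 6.37, 7.89 and 7.21, in the same order of donors as CXCL10 and CXCL11. IFNG ran in the reverse order, and the marker sum was highest in PC. The TLR-MSC-CM library of AG1 had the highest IFNG, at 14.0 CPM, with 279 CPM of CXCL11 and 205 CPM of CXCL10. Over the 11 macrophage libraries CXCL10 and CXCL11 had a Pearson r of 0.832 and a Spearman rho of 0.791 on log2(CPM + 1), given as a description, since the libraries share 1 horse and some share a medium donor.

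The level in different joint cell types was compared with resting MSC-CM, where each type had 3 libraries. CXCL10 was higher in macrophages than in synoviocytes by 9.94 on the log2 scale (SE 0.985, adjusted p = 2.17e-05 by edgeR) and than in chondrocytes by 12.05 (SE 1.14, adjusted p = 1.60e-05). All 29 synoviocyte counts came from the library with ORC medium, and leaving that library out gave 16.37 (adjusted p = 6.01e-05 by edgeR), a fitted value against libraries at 0 that is no bound, while leaving out any other gave 9.32 to 10.32. CXCL11 had 0 counts in the synoviocytes and chondrocytes. It was at least 3200-fold higher in macrophages than the floor in synoviocytes (adjusted p = 0.000238 by edgeR) and at least 3321-fold higher than that in chondrocytes (adjusted p = 0.000234). The background is wide, because 71.5% and 71.4% of 15599 genes were called between macrophages and the other types, 36.5% and 36.6% as higher in macrophages. All macrophage libraries lay above all others for both genes, as for 39.6% of genes against synoviocytes and 38.5% against chondrocytes, and the exact permutation p was 0.1. Chondrocytes and synoviocytes did not differ in CXCL10 beyond their spread (−2.11, SE 1.98, adjusted p = 0.529 by edgeR), in a comparison that called 18.1% of genes. Per the study's methods each cell type is 1 horse, and the study's overview can be read as the same horse for all types. Whether the types share an animal is thus uncertain. If they do not, cell type and animal cannot be told apart.

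Ordered by mean CPM of CXCL10, the 5 macrophage conditions came first, from 289 to 481 CPM, followed by MSC after the STING agonist (71.3) and the TLR3 agonist (68.3), synoviocytes with TLR-MSC-CM (4.04), untreated MSC (0.592) and CpG MSC (0.463), synoviocytes with resting MSC-CM (0.355) and STING-MSC-CM (0.176), and chondrocytes with resting MSC-CM (0.0663). The other 6 synoviocyte and chondrocyte conditions were at 0.0316 CPM or less. Neighbouring conditions of 3 libraries each overlapped in this order, except the lowest macrophage condition, with TLR-MSC-CM (205 to 357), and MSC after the STING agonist (2.14 to 139). Macrophages with no addition (481) and with the cytokines only (471) were single libraries with no spread, and the latter lay above the 3 libraries with STING-MSC-CM (169 to 442). No interaction of medium and cell type passed in edgeR (0% of 16584 genes, with 274 to 719 at an unadjusted p under 0.05 and 0 to 4 called by DESeq2). For CXCL10 the change with TLR-MSC-CM in macrophages less that in synoviocytes was −3.76 on the log2 scale (SE 1.68, unadjusted p = 0.0373, adjusted p = 1.00 by edgeR), and the change in chondrocytes less that in synoviocytes was −6.15 (SE 5.76, unadjusted p = 0.299, adjusted p = 1.00 by edgeR). Both turned to the other sign, to 6.24 and 3.85, without the TLR-MSC-CM library of ORC in synoviocytes, and were −10.25 and −12.64 without the resting library of ORC there.

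Receptors and protease were compared next. CXCR3 had 0 counts in all synoviocyte and chondrocyte libraries and was at 8.26 to 12.8 CPM in macrophage cultures, where the T and NK cell markers were also found, and which cells carried it was not tested. DPP4 was at 13.5 to 31.2 CPM in macrophages, and in synoviocytes at 5.94 CPM with no addition and 0.472 CPM with the cytokines. ACKR3, the scavenger of CXCL11, ran the other way, at 521 to 674 CPM in synoviocytes, 235 to 522 CPM in chondrocytes and 136 to 265 CPM in macrophages. It was lower in macrophages by −1.43 (SE 0.205, adjusted p = 8.68e-05 by edgeR) against synoviocytes and by −0.66 (SE 0.202, adjusted p = 0.0132) against chondrocytes. In MSC ACKR3 was at 90.0 to 580 CPM and followed the donor, being lowest in 92 in each condition.

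Of 40 tested genes of the pathway, 33 were higher and 1 lower in macrophages than in synoviocytes, by adjusted p in edgeR. Against chondrocytes 32 were higher and 2 lower. Over all genes, 36.5% and 36.6% were higher in these contrasts. The median log2 differences of the pathway genes were 2.37 and 1.81, against 0.04 and 0.04 over all genes. All 9 sensing genes tested were higher in macrophages than in chondrocytes, and all but MAVS were higher than in synoviocytes. In the order synoviocytes and chondrocytes, the log2 differences were 7.02 and 9.19 for IFIH1, which detects double-stranded RNA, 3.29 and 3.25 for CGAS, which makes the ligand of STING, 2.48 and 1.73 for STING1 and 3.17 and 2.68 for DDX58. They were 1.78 and 1.37 for TICAM1, the adaptor of TLR3, 1.61 and 1.24 for TBK1 and 2.10 and 1.16 for IKBKE. TLR3 was at 13.9 to 40.1 CPM in macrophages with resting MSC-CM, at 0.404 to 1.03 CPM in synoviocytes and had 0 counts in chondrocytes. MAVS was at 0.25 (adjusted p = 0.0647 by edgeR) and 0.31 (adjusted p = 0.0287).

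Among transcription factors, in the same order of contrasts, IRF1 (5.97 and 5.75), IRF7 (5.45 and 6.58), STAT2 (2.57 and 2.51), IRF9 (2.18 and 2.14) and IRF3 (0.81 and 0.63) were higher in macrophages in both contrasts. So was IRF8, a factor of myeloid cells, at 236 to 351 CPM in macrophages with resting MSC-CM, 0.0632 to 0.184 CPM in synoviocytes and 0 counts in chondrocytes. Of the NF-κB subunits, REL (3.61 and 2.68), NFKB1 (1.67 and 1.15), NFKB2 (1.33 and 0.72) and RELB (1.86 and 1.18) were higher, and RELA was at 0.04 and −0.14, past the threshold in neither. The receptor chains IFNGR1 (2.37 and 2.18), IFNGR2 (2.37 and 1.39), IFNAR2 (2.03 and 0.67) and IL10RB (2.82 and 1.89) were higher as well, and IFNAR1 was higher against synoviocytes (0.50) and at −0.04 against chondrocytes. IFNLR1, the interferon lambda receptor, was lower than in chondrocytes (−0.63) and at −0.39 against synoviocytes. JAK2 was called against synoviocytes (0.93) and JAK1 against chondrocytes (0.71), while TYK2 was at 0.01 and 0.04.

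The genes that restrain interferon and NF-κB signalling were higher in 5 of 5 cases against synoviocytes and 4 of 5 against chondrocytes. The shares of all genes higher there were 36.5% and 36.6%. SOCS1, an inhibitor of JAK kinases, was higher by 5.98 and 6.58, USP18, which removes ISG15 and blocks the type I receptor, by 4.33 and 7.27, TNFAIP3 by 3.44 and 2.37 and SOCS3 by 1.26 and 0.76. NFKBIA was higher by 1.62 against synoviocytes and at 0.61 against chondrocytes, which did not pass. IFNG was found in macrophage cultures, at 4.01 to 14.0 CPM, and in 1 synoviocyte library at 0.0363 CPM, and IFNB1 was at 0.272 CPM or less.

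**Figure D5:**
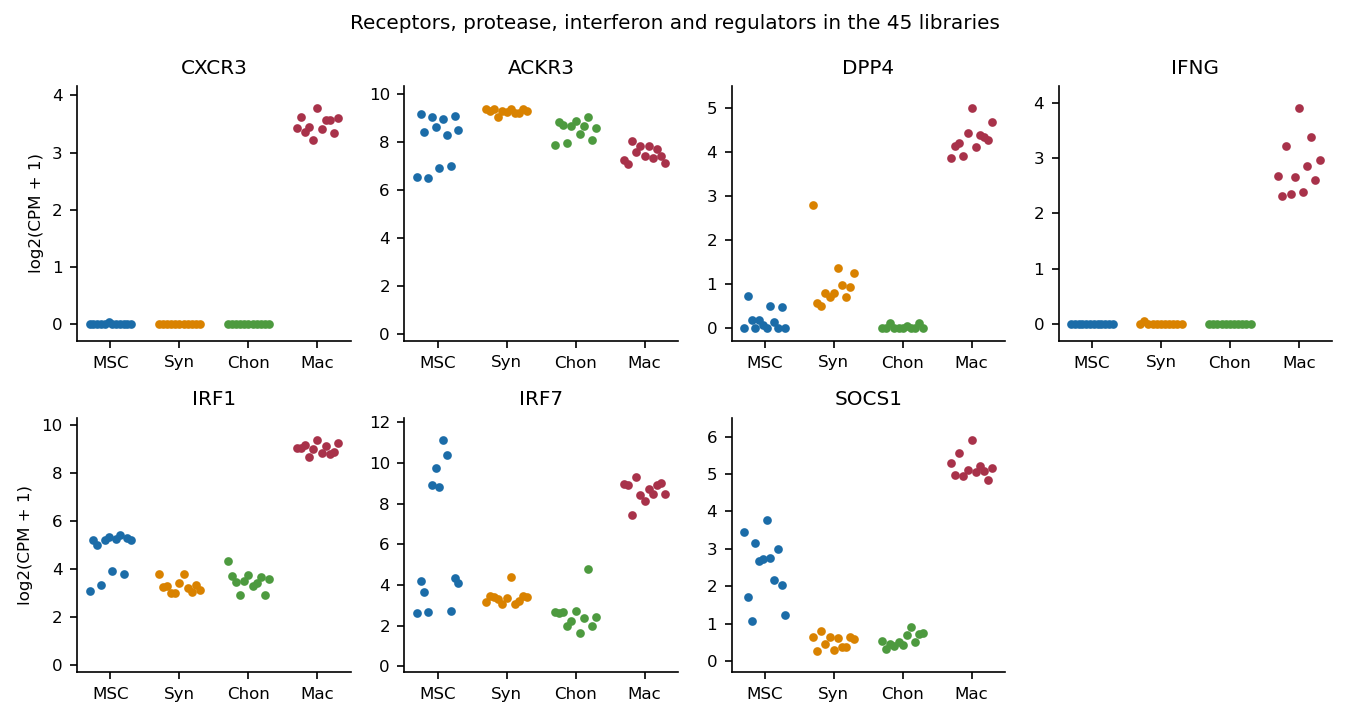
Levels as log2(CPM + 1) on the vertical axis of 7 genes around the CXCR3 ligands in MSC, synoviocytes (Syn), chondrocytes (Chon) and macrophages (Mac), 1 point per library, in the order of the conditions. CXCR3 and IFNG lie at or next to 0 outside macrophages, ACKR3 is lower in macrophages than in synoviocytes, and IRF7 of MSC spans 5.24 to 2244 CPM.

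Over the 33 joint cell libraries, PRR15 (Pearson r = 0.991), OASL (0.989), CXCL11 (0.989), CD7 (0.988) and PARP15 (0.988) had the patterns most like CXCL10 among 11591 genes. The 11 macrophage libraries stand apart from the other 22, so each value rests on that split, and rank correlation named 5 other genes. OASL, an interferon-induced protein, was at 0 to 462 CPM over these libraries, and CD7, a T and NK cell surface protein, at 0 to 58.0 CPM.

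The neighbours of the ligand genes were read in RefSeq's order on the assembly TB-T2T, which is not the build of the counts. There NUP54, ART3, CXCL11, CXCL10, CXCL9, SDAD1 and NAAA follow each other, and the span of ART3 overlaps CXCL11 and CXCL10. ART3 had 219 to 665 counts in macrophages and 0 to 17 in the other 34 libraries, and SDAD1, a ribosome biogenesis factor, 16832 to 53443 against 257 to 653. NAAA had 3146 to 6342 counts in macrophages and 273 to 2192 elsewhere, while NUP54, at 588 to 1126 counts against 498 to 1345, had a like level in all. The strand setting of the counting was not given in the sources used here, and how reads of overlapping genes and of CXCL9 were assigned was not tested.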

How the data were processed

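RNA of 45 equine libraries was sequenced as paired reads. Per the paper's methods and the submitters' processing notes, the authors used Cutadapt 1.12 for trimming, STAR for alignment to the horse build EquCab3.0 and HTSeq 0.11.0 for counting. The deposited values are whole-number read counts per protein coding gene, without normalization, for 20881 genes (3970 by Ensembl identifier only). No molecular identifiers were used. CPM were computed from library totals (23525704 to 54103873). All 3 members were looked up by symbol.

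Counts were tested with edgeR 4.0.16 in R 4.3.3 (TMM, robust quasi-likelihood test, genes with at least 10 counts in a fit, Benjamini-Hochberg adjustment over all genes, threshold 0.05), each cell type on its own, the cell types over the 9 resting MSC-CM libraries, and interactions over 27 libraries. The SE of an edgeR value was derived from the test, as the size of the log2 fold change divided by the square root of its F statistic. DESeq2 1.42.0 and other settings were alternatives. Exact permutation tests of members used log2(CPM + 1), and no permutation test paired libraries by donor. Ratios have exact 95% counting intervals. Scripts were tested on simulated counts. No 2 libraries held the same counts.

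Libraries of the same donor deviated together in MSC (correlation across genes 0.661 to 0.900, against −0.749 to 0.151 between different donors). In chondrocytes (0.570 to 0.892 against −0.774 to 0.613) and macrophages (0.339 to 0.573 against −0.592 to 0.375) these ranges overlapped at their ends. Synoviocytes showed no such pairing (−0.382 to 0.359 against −0.321 to 0.370). The donor thus pairs libraries clearly in MSC and less clearly in chondrocytes and macrophages. On the reading that the horse code names the MSC donor, the p-values measure spread between donors of MSC, not between joint cell animals.

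Named genes were the members, the receptors, protease, interferons, IRF1, IRF7 and SOCS1, pathway genes called where a member was called, the 5 genes most like CXCL10, and up to 4 genes per list with the smallest p for the STING agonist. Sensors of MSC and libraries given beside others were added after their values were seen. The members, lists and tests were chosen with earlier results of these data known. Of the lists written, 41 of 45 pathway genes and 13 of 15 type I and 9 of 12 interferon gamma targets are in the tables. Levels of different genes were not compared per length, and promoter motifs were not searched, since no table of sequences was used here. A gene of the pathway is not reported here.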

Additional observations from a re-analysis of the deposited data

How the results depend on the processing

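The higher level of CXCL10 and CXCL11 in macrophages than in synoviocytes and chondrocytes passed under all alternatives run, with adjusted p-values of at most 0.00260. In MSC the STING agonist values passed with DESeq2 (CXCL10 6.90, CXCL11 8.16), and CXCL11 also with the replicate block (7.82, edgeR). Over the alternatives the adjusted p ran from 0.0353 to 1 for CXCL10 and from 0.00132 to 1 for CXCL11 with the STING agonist, and from 0.0610 to 1 and from 0.0647 to 1 with the TLR3 agonist. CXCL11 with STING-MSC-CM in macrophages kept its direction over all alternatives run, with adjusted p-values of 0.261 to 1 against resting and 0.239 to 1 against TLR-MSC-CM. DESeq2 gave no p for CXCL10 in synoviocytes. Of single libraries, only the 9 of synoviocytes were left out of the fits that compare media between cell types, an alternative chosen after seeing the data. Signs reversed in values near 0: CXCL11 with TLR-MSC-CM in macrophages was 0.084 with the replicate block, the difference of the STING-MSC-CM change of CXCL10 between chondrocytes and synoviocytes was 0.17 with a prior count of 2, and the mean difference of CXCL10 for STING-MSC-CM in synoviocytes was 0.049 with a pseudocount of 0.1. The block changed no other call of a member.

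Leaving out single libraries gave log2 ranges across 0 for STING against TLR3 agonist (CXCL10 −0.94 to 1.34, CXCL11 −0.21 to 3.81), CpG (CXCL10 −1.06 to 0.14), synoviocytes (CXCL10 −6.46 to 9.95 for TLR-MSC-CM, −1.53 to 5.51 for STING-MSC-CM, −5.06 to 5.52 for STING against TLR), macrophages (CXCL10 −0.64 to 0.28 and CXCL11 −0.36 to 0.37 for TLR-MSC-CM, CXCL10 −0.32 to 0.59 for STING-MSC-CM), chondrocytes against synoviocytes (CXCL10 −3.09 to 4.32), and the change of CXCL10 less that in synoviocytes (TLR-MSC-CM −12.64 to 3.85 in chondrocytes and −10.25 to 6.24 in macrophages, STING-MSC-CM −6.77 to 0.34 and −5.53 to 1.57). The widest ranges on 1 side of 0 were CXCL11 for the TLR3 agonist (4.02 to 8.09) and the STING agonist (5.94 to 9.74) and CXCL10 in macrophages against synoviocytes (9.32 to 16.37).

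Counts of called genes against 0 in the main fits were, with DESeq2, 48 and 93 for the TLR3 and STING agonists, 1 between them, 2 for TLR-MSC-CM in synoviocytes, 9 and 31 for STING-MSC-CM in macrophages against resting and TLR-MSC-CM, and 1, 2 and 4 for the STING-MSC-CM interactions. With the replicate block they were 2 for the STING agonist, 1 and 2 for STING-MSC-CM in chondrocytes, and 99 and 412 in macrophages, and over 27 libraries 6 for STING against TLR-MSC-CM in macrophages. Leaving out libraries gave 0 to 48 for the TLR3 agonist and 1765 to 3800 between chondrocytes and synoviocytes, against 2819. The cytokine ratios of macrophages were 0.952 and 1.02 with TMM factors. Few or no counts of the gene limit CXCL10 in chondrocytes and CXCL11 in synoviocytes, chondrocytes and untreated MSC. For these changes of value the cause was not tested.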
